A study of Mus musculus with 14 samples.

Results

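Transcripts of 9 genes of Toll-like receptor signalling were followed in microglia sorted from mouse retinas: the receptors Tlr2, Tlr3, Tlr4, Tlr7, Tlr9 and Tlr13, the accessory genes Cd14 and Ly86, and the adaptor gene Myd88. They were chosen by name from the 47729 genes of the expression tables, and all 9 were found and all passed the filter on low counts, which kept 14279 genes. Each of the 14 libraries held microglia of 1 retina of a wild type C57BL/6 mouse aged 12 weeks, sorted as CD11b+, Ly6c- and Fcrls+ cells and turned into a library with the SMART-Seq2 protocol, which copies whole transcripts of few cells. The groups were 3 retinas injected with microbeads, a model that the labels describe as glaucoma (microbead), 3 retinas contralateral to such an injection (contralateral), 4 sham-injected retinas (sham) and 4 untreated retinas (naive). A retina gave 100 to 600 cells, of which 100 to 300 were lysed. The labels give neither the time after injection nor the mouse each retina came from, and no eye pressure was used here. The p-values below measure the spread between these libraries.

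Toll-like receptors are membrane proteins that recognise microbial products and products of damaged cells, and microglia are the main cells that carry them in nervous tissue. Tlr2 and Tlr4 act at the cell surface, where Cd14 passes them lipoprotein and lipopolysaccharide, while Tlr3, Tlr7, Tlr9 and Tlr13 read nucleic acids inside endosomes. Myd88 is the adaptor of all of these receptors except Tlr3, and the signal it starts ends in NF-kB and in the transcription of cytokines and chemokines. Ly86 encodes the secreted partner of Cd180, a receptor relative that modulates the response to lipopolysaccharide.

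The promoters of Ly86 and Tlr9 are shown because these 2 members had the smallest p-values in microbead against sham and against naive, in opposite directions. Both are RefSeq sequences of GRCm38.p6, 300 bases long, from 250 bases before to 50 after the annotated start, with capitals for matches to any of the motifs searched. The Ly86 window is chr13:37345095-37345394 on the plus strand, and the Tlr9 window is chr9:106222348-106222647 on the plus strand.
Ly86: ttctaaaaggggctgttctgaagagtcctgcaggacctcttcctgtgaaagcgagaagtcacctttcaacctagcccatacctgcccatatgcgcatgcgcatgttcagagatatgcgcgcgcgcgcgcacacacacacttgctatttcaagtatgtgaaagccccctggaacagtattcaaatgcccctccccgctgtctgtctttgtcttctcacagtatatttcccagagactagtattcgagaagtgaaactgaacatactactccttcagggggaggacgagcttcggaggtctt
Tlr9: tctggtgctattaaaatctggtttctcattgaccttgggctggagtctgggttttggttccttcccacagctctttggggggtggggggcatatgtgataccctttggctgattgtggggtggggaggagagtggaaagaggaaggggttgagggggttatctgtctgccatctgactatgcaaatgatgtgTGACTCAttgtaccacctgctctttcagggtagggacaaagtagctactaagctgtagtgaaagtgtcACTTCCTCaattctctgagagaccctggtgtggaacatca
Motifs were searched on both strands: GAGGAAGT for PU.1, TGANTCA for AP-1, TATAAA for a TATA box, GGG followed after any 5 bases by CC for NF-kB, and GAAA followed after any 2 bases by GAAA for an interferon-stimulated response element. The Tlr9 window held TGANTCA beginning 58 bases before the start, and GAGGAAGT on the minus strand, beginning at base 11 after it. These letters occur in 7.81% and 3.20% of 32851 mouse promoters of the same length. The Ly86 window held none of these letters, which says nothing of the factors. Of the 6 members with an entry, the Tlr13 window also held none, the Tlr2 window held 7 overlapping matches to the NF-kB letters in 2 places, and the Tlr3 window held 3. The NF-kB letters are common, in 50.8% of promoters. The Myd88 window held the response element beginning 40 bases before the start, which 3.44% of promoters hold, and 2 overlapping matches to TATAAA on opposite strands, which 13.6% hold. Tlr4, Tlr7 and Cd14 had no entry. The starts used here are those of RefSeq, while the gene positions given below are those of GENCODE M21, and they can differ. The Myd88 window, chr9:119339969-119340268 on the minus strand, lies wholly inside the gene span given below. The GENCODE start of Ly86 lies upstream of its RefSeq start. The libraries measure no binding at any of these letters.

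Libraries held 1.34 to 14 M counts. In microbead 1, 10167 genes had reads and in contralateral 2, 10306 did, against at least 13472 in every other library. Long transcripts were less represented in the microbead libraries. The median log2 level relative to naive of genes up to 1000 bases minus that of genes over 4000 bases was 0.69, 0.44 and 1.11 there. It was 0.35, 0.77 and -0.21 in contralateral, -0.04 to 0.14 in sham and -0.19 to 0.07 in naive libraries. All 12 microglial markers were read in every library, with summed levels of 16727 to 35634 CPM (reads per gene scaled to the TMM-adjusted size of the library) in microbead, 27821 to 40469 in contralateral, 34679 to 38560 in sham and 23759 to 36378 in naive. The 10 markers of monocytes and infiltrating macrophages summed to 76.8 to 182 CPM in microbead, 2.68 to 154 in contralateral, 3.86 to 102 in sham and 2.30 to 35.0 in naive. Of these, Ly6c2 and Chil3 had 0 reads in every library. The 5 markers of border macrophages summed to 0 to 15.99 CPM in microbead, 13.4 to 194 in contralateral retinas, 15.6 to 139 in sham and 19.6 to 99.0 in naive, and Cd209f among them had 0 reads in every library. The 5 B cell markers summed to 42.5 to 59.6 CPM in microbead, all of it Cd79b, and to 22.1 to 25.4 in naive. They summed to 34.8 to 76.4 CPM in contralateral and 13.96 to 61.9 in sham, which both overlapped microbead. The sums for neutrophils, dendritic cells, endothelium, Muller glia and astrocytes, and rods overlapped between microbead and naive. The part of these differences in the results below was not tested, except where a value is given with the length trend removed.

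Per transcript length, Ly86 and Cd14 were the most abundant members in microglia. Their median levels over the 14 libraries were 1990 and 518 FPKM (reads scaled to transcript length and library size by the authors). Tlr7 followed at 89.9, Tlr2 at 89.2, Tlr13 at 60.7, Tlr9 at 56.8 and Myd88 at 40.7 FPKM, while Tlr4 at 15.4 and Tlr3 at 6.54 FPKM were the lowest. The deposited effective length of Tlr4, Tlr7 and Tlr13 differed between libraries, for Tlr13 from 1068 to 3822 bases, so the per-length levels of these 3 rest on an estimated mix of transcripts. In CPM, Tlr13 and Ly86 varied least over the libraries, with highest-to-lowest ratios of 2.45 and 2.78, and Tlr2 varied most, with 45.0.

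**Figure D1:**
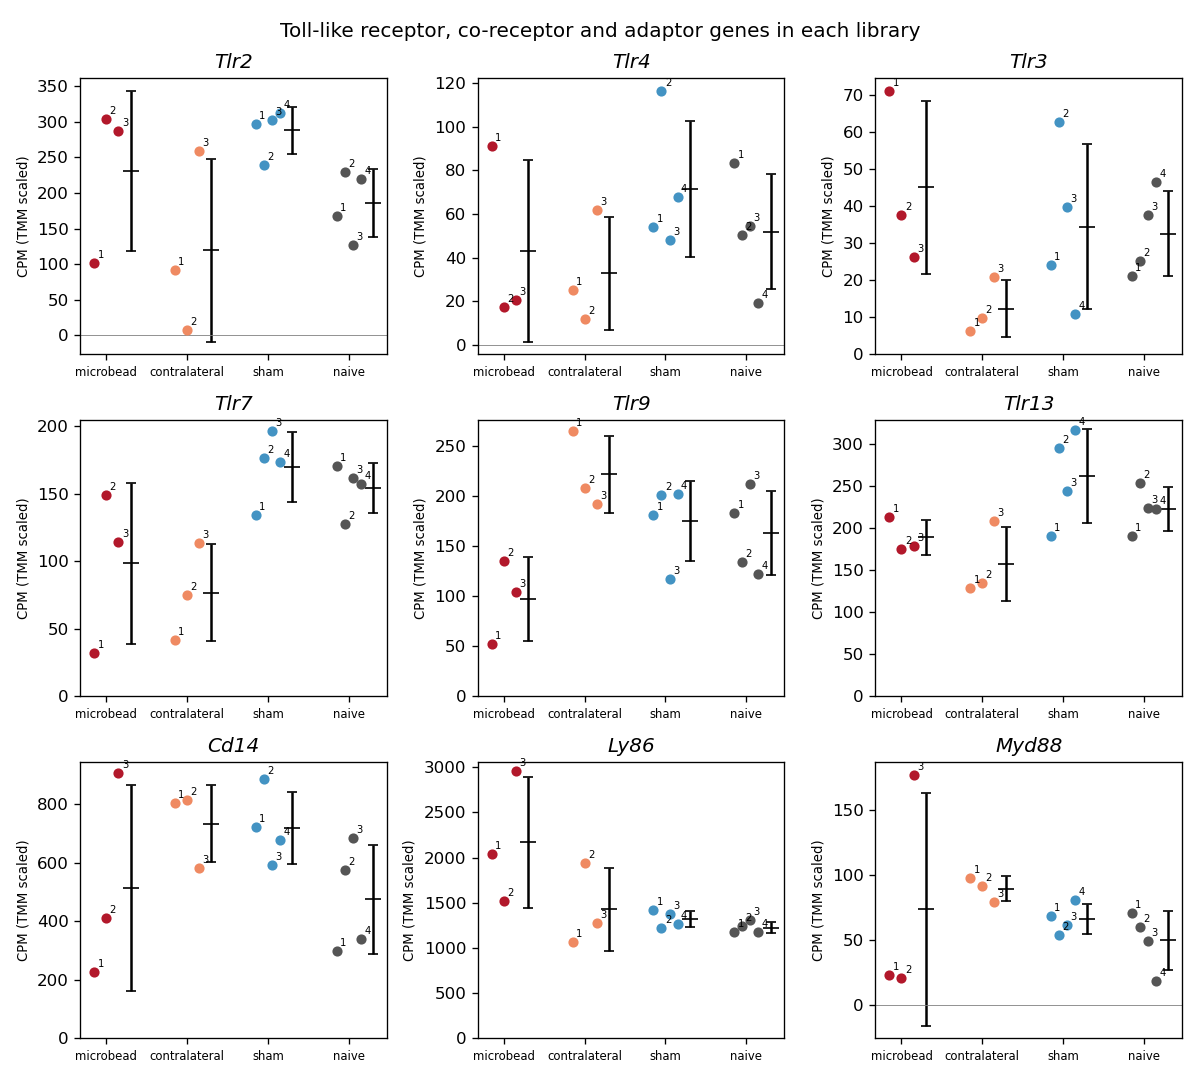
Level of each member in each library, in CPM on a linear axis, with 1 point per library, its replicate number, and the mean and SD of the group beside the points. Ly86 in the 3 microbead retinas lies between 1522 and 2955 CPM, above every sham and naive library, while Tlr9 lies between 51.7 and 134.9 CPM, below every contralateral library.

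Among the surface accessory genes, Ly86 (chromosome 13, 37345208 to 37419036, plus strand, mm10) was the member set furthest above sham and naive. It had 2038, 1522 and 2955 CPM in microbead, 1064, 1942 and 1276 in contralateral, 1422, 1226, 1374 and 1269 in sham, and 1180.0, 1238, 1305 and 1175 in naive retinas. Every microbead library lay above every sham and naive library, and contralateral 2 lay inside the microbead range. The means were 2172 ± 726 CPM in microbead (SD, n = 3), 1427 ± 458 in contralateral (n = 3), 1323 ± 90.8 in sham (n = 4) and 1225 ± 60.8 in naive (n = 4).

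The log2 fold change of Ly86 was 0.72 against sham (SE 0.24, adjusted p = 0.327), 0.83 against naive (SE 0.24, adjusted p = 0.177) and 0.61 against contralateral (SE 0.26, adjusted p = 0.396). None was called, that is under 0.05 after Benjamini-Hochberg adjustment over all genes in the quasi-likelihood test of edgeR, although the unadjusted p was 0.00864, 0.00315 and 0.0330. DESeq2's Wald test (adjusted p = 0.0296) and limma's voom (adjusted p = 0.0311) did call it against naive, where DESeq2's Wald test called 580 genes in all. Ly86 has a short transcript of 997 bases. With the length trend removed from each library, its log2 fold change was 0.38 against sham, 0.49 against naive and 0.06 against contralateral. Without microbead 3 it was 0.41, 0.52 and 0.38. On the per-length scale it had 2791, 1817 and 3408 FPKM in microbead, against 1839 to 2123 in sham and 1680 to 2112 in naive, so that microbead 2 lay below the sham range and within the naive range. Cd180, the receptor that the Ly86 protein accompanies, averaged 385 ± 169 CPM in microbead, 463 ± 162 in contralateral retinas, 448 ± 68.2 in sham and 395 ± 56.3 in naive, all with overlapping ranges. In bulk libraries like these, fewer cells with a transcript and less of it per cell cannot be told apart.

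Cd14 (chromosome 18, 36725067 to 36726798, minus strand), the co-receptor that delivers lipopolysaccharide, had 225, 410.3 and 906 CPM in microbead, 803, 816 and 582 in contralateral, 721, 887, 591 and 679 in sham, and 297, 576, 684 and 341 in naive retinas. The 3 microbead libraries held both the lowest and the highest value of the series. Its log2 fold change was -0.48 against sham (SE 0.38), 0.12 against naive (SE 0.38) and -0.51 against contralateral (SE 0.41), with adjusted p-values of 0.752, 0.970 and 0.660. Without microbead 3 these values were -1.20, -0.60 and -1.15, and the sign against naive turned. Contralateral and sham libraries averaged 734 ± 131 and 720 ± 124 CPM, and naive libraries 475 ± 186, and neither difference from naive passed the test.

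Tlr2 (chromosome 3, 83836272 to 83841767, minus strand), the receptor for bacterial lipoproteins, had 102, 304 and 288 CPM in microbead, 91.3, 6.94 and 259 in contralateral, 298, 239.7, 303 and 312 in sham, and 168, 229, 128 and 220.0 in naive retinas. The sham libraries were close together and all lay above the naive libraries, with a difference of 0.63 on the log2 scale (SE 0.61). Contralateral 2, with 44 reads, was far below the rest, and it is one of the libraries with few genes read. The microbead log2 fold changes were -0.31 against sham (SE 0.66), 0.32 against naive (SE 0.65) and 0.96 against contralateral (SE 0.70), with all ranges overlapping. Against sham the value was 0.01 without microbead 1, -0.59 without microbead 2 and -0.52 without microbead 3. Against naive it was 0.65 without microbead 1, 0.046 without microbead 2, 0.12 without microbead 3 and 0.17 without naive 3, and against contralateral it was 0.38 without contralateral 2 and 2.24 without contralateral 3.

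Tlr4 (chromosome 4, 66827584 to 66930284, plus strand), the lipopolysaccharide receptor, had 91.2, 17.5 and 20.7 CPM in microbead, 25.1, 12.0 and 61.9 in contralateral, 54.1, 116, 48.0 and 67.8 in sham, and 83.7, 50.6, 54.4 and 19.3 in naive retinas. All 4 groups overlapped, and microbead 1 stood apart from the other microbead libraries. The log2 fold change of microbead was -0.75 against sham (SE 0.71), -0.29 against naive (SE 0.70) and 0.37 against contralateral (SE 0.75). Without microbead 1 it was -1.93, -1.47 and -0.79, so the sign against contralateral rests on that library.

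Among the endosomal receptors, Tlr9 (chromosome 9, 106222598 to 106226883, plus strand), which recognises unmethylated CpG DNA, had its lowest mean in the microbead retinas. It had 51.7, 134.9 and 104 CPM in microbead, 264, 208 and 191 in contralateral, 181, 201, 117 and 202 in sham, and 182, 133, 212 and 122 in naive retinas. Every microbead library lay below every contralateral library, while microbead 2 lay within the sham and naive ranges. The group means were 96.9 ± 42.0 CPM in microbead, 221 ± 38.3 in contralateral retinas, 175 ± 40.04 in sham and 163 ± 42.0 in naive.

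Tlr9 had a log2 fold change of -1.19 against contralateral (SE 0.39, unadjusted p = 0.00647, adjusted p = 0.250 in edgeR), -0.85 against sham (SE 0.36, adjusted p = 0.466) and -0.74 against naive (SE 0.36, adjusted p = 0.486). DESeq2's Wald test called the comparison with contralateral (adjusted p = 0.0472), in which it called 683 genes in all. On the per-length scale the 3 microbead libraries had 16.6, 35.6 and 26.7 FPKM, against 54.2 to 71.7 in contralateral, 37.9 to 69.5 in sham and 38.9 to 76.1 in naive, and there no microbead library overlapped any other group. With the length trend removed, the log2 fold change of this transcript of 3478 bases was -1.34 against contralateral, -0.52 against sham and -0.37 against naive. Without microbead 1 the values were -0.85, -0.58 and -0.47, and the sign stayed negative under every alternative run.

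Tlr7 (chromosome X, 167304929 to 167330558, minus strand), the receptor for single-stranded RNA, separated the contralateral retinas instead, in CPM. It had 32.3, 149 and 114 CPM in microbead, 41.5, 75.2 and 113 in contralateral, 134, 177, 196 and 173 in sham, and 171, 128, 161 and 157 in naive retinas. All 3 contralateral libraries lay below all sham and naive libraries, and microbead 2 lay within both of those groups. On the per-length scale this separation was lost. Contralateral 3 had 91.7 FPKM there, within the sham range of 73.0 to 124.8 and the naive range of 89.0 to 115. The log2 fold change of contralateral was -1.15 against sham (SE 0.45, unadjusted p = 0.0195, adjusted p = 0.963 in edgeR) and -1.01 against naive (SE 0.45, unadjusted p = 0.0365, adjusted p = 0.949). Those of microbead were -0.78 against sham (SE 0.44), -0.64 against naive (SE 0.44) and 0.36 against contralateral (SE 0.47). Without microbead 1 the first of these was -0.40.

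Tlr13 (chromosome X, 106143204 to 106160493, plus strand), which recognises bacterial ribosomal RNA in mice, had 213, 175 and 179 CPM in microbead, 129, 135 and 208 in contralateral, 191, 295, 244 and 316 in sham, and 190.0, 253, 224 and 222 in naive retinas. Its ranges overlapped in every comparison. The log2 fold change of microbead was -0.47 against sham (SE 0.29), -0.24 against naive (SE 0.29) and 0.26 against contralateral (SE 0.31), and that of contralateral against sham was -0.73 (SE 0.29, unadjusted p = 0.0215, adjusted p = 0.963 in edgeR). With the length trend removed, the microbead values were 0.02 against sham and 0.29 against naive.

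Tlr3 (chromosome 8, 45395665 to 45411080, minus strand), the receptor for double-stranded RNA, had 71.1, 37.6 and 26.4 CPM in microbead, 6.27, 9.77 and 20.9 in contralateral, 24.0, 62.6, 39.8 and 10.9 in sham, and 21.2, 25.2, 37.5 and 46.4 in naive retinas. The contralateral mean was the lowest. In CPM all 3 contralateral libraries lay below every microbead and naive library, while sham 4 lay below contralateral 3. On the per-length scale contralateral 3 had 5.79 FPKM, above microbead 3 (5.41) and naive 1 (5.44), so those groups overlapped there. The log2 fold change of microbead against contralateral was 1.86 (SE 0.80, unadjusted p = 0.0320, adjusted p = 0.395 in edgeR) and that of contralateral against naive was -1.40 (SE 0.75, adjusted p = 0.959). Against sham and naive, microbead had values of 0.38 (SE 0.72) and 0.46 (SE 0.72), which were -0.12 and -0.04 without microbead 1. An annotated antisense gene overlaps Tlr3, and the strand setting of the counting is not stated.

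Myd88 (chromosome 9, 119335934 to 119341411, minus strand), the adaptor, had 23.0, 21.1 and 177 CPM in microbead, 98.1, 91.4 and 79.3 in contralateral, 68.7, 54.1, 61.8 and 80.8 in sham, and 71.0, 60.5, 49.3 and 18.7 in naive retinas. The microbead libraries did not lie together: 2 of them lay below every sham and contralateral library and microbead 3 lay above every library of the series. Its log2 fold change was 0.16 against sham (SE 0.64), 0.57 against naive (SE 0.63) and -0.27 against contralateral (SE 0.68). Without microbead 3 it was -1.61, -1.20 and -1.97, so the sign against sham and naive rests on 1 library. The contralateral libraries all lay above the naive libraries (log2 fold change 0.85, SE 0.63, adjusted p = 1.00). Myd88 shares 290 of its 2576 exonic bases with Acaa1a on the opposite strand, so its reads are uncertain where counting ignored strand.

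**Figure D2:**
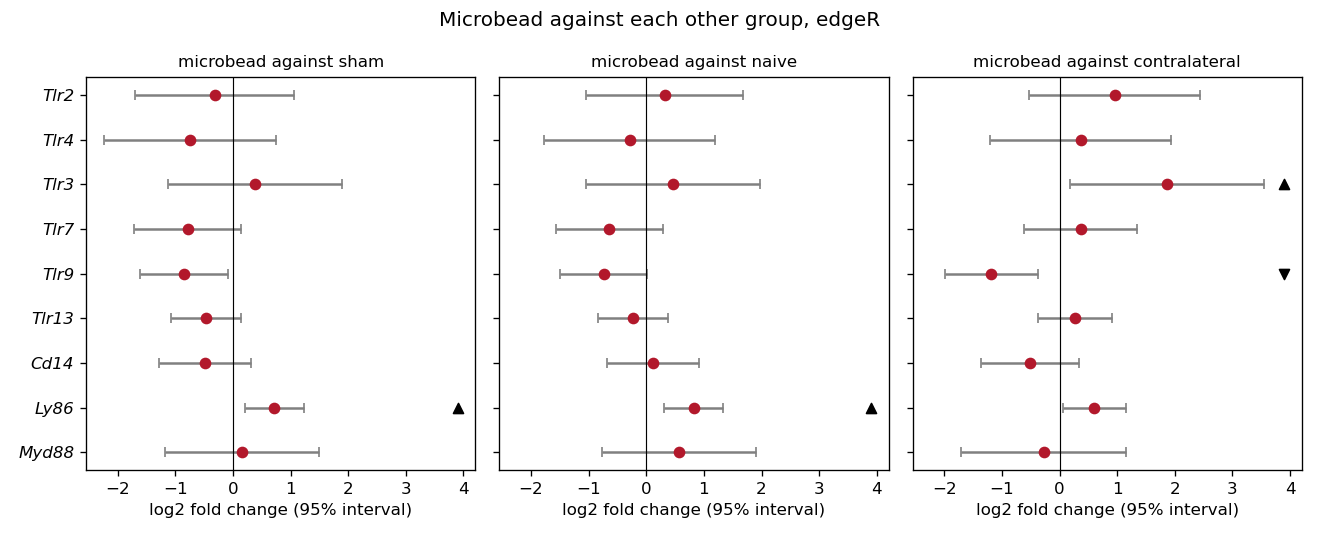
Log2 fold change of the microbead retinas against each other group for the 9 members, with 95% intervals from edgeR, and a triangle where all microbead libraries lie above (pointing up) or below (pointing down) all libraries of the other group. Ly86 lies to the right of 0 in all 3 panels and Tlr9 to the left.

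Over all members, edgeR called 0 of 9 in each of the 6 comparisons. The share of all genes that passed was 0.014% for microbead against sham, 0.21% against naive, 0.028% against contralateral, and 0% in the 3 comparisons without microbead. At an unadjusted p under 0.05, 2 of 9 passed against sham, where 9.75% of all genes did, 1 against naive (10.5%) and 3 against contralateral (11.5%). In contralateral against naive 1 of 9 passed (5.18% of all genes), in contralateral against sham 2 (4.86%), and in sham against naive 0 (2.66%). DESeq2's Wald test and voom each called 1 member, Ly86, in microbead against naive, and DESeq2's Wald test called Tlr9 in microbead against contralateral. The shares above do not apply to these calls: of all genes, DESeq2's Wald test called 580 against naive and 683 against contralateral. A joint test of the 4 groups called 0 members (0.224% of all genes), and 2 had an unadjusted p under 0.05 (8.17% of all genes), Ly86 at 0.0140 and Tlr9 at 0.0470.

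The members that lay wholly apart between groups in CPM are counted here beside the share of all genes. In microbead against sham, 1 of 9 members lay wholly higher (5.11% of all genes) and 0 wholly lower (7.08%). Against naive the counts were 1 (4.85%) and 0 (6.98%), and against contralateral they were 1 (5.2%) and 1 (5.64%). In contralateral against naive, 1 lay wholly higher (2.49%) and 2 wholly lower (3.73%). In contralateral against sham, 0 did (2.04%) and 1 did (3.88%), and in sham against naive 1 did (1.61%) and 0 did (1.37%).

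The directions differed between comparisons. The fitted level in microbead was lower than in sham for 6 of 9 members (54% of all genes), than in naive for 4 (54.8%) and than in contralateral for 3 (52.4%). The medians of their log2 fold changes were -0.47, 0.12 and 0.36, against -0.12, -0.14 and -0.08 over all genes. Contralateral was lower than naive for 5 of 9 (52.5%) and lower than sham for 5 of 9 (51.6%), with medians of -0.50 and -0.73, against -0.06 and -0.04 over all genes. In sham against naive 0 of 9 were lower (51.3%), with a median of 0.23 against -0.02 over all genes. Comparisons that share a group share its libraries, and these counts are given side by side only.

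The rest of the pathway was read from 5 lists by role, of which 71 of 78 genes were tested. In microbead against naive, where 0.21% of all genes passed, 2 of them passed in edgeR, and both were higher in microbead. Against sham and contralateral 0 genes of the lists passed (0.014% and 0.028% of all genes).

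Of the 6 other Toll-like receptors, all tested, 5 had a lower fitted level in microbead than in naive, and 2 of those had an unadjusted p under 0.05, beside 54.8% and 10.5% of all genes. Their median log2 fold change was -2.35, or -1.47 with the 2 genes that had 0 microbead reads set to their bound. Tlr5, the flagellin receptor, had 0 reads in all 3 microbead libraries, 0, 2.21 and 3.97 CPM in contralateral, 7.47, 4.57, 9.94 and 2.72 in sham, and 3.66, 6.22, 9.63 and 14.3 in naive. Against a floor of 3 reads over the microbead group, which covers counting error only since PCR copies are not separate molecules, it was at least 61.3-fold lower than in naive and at least 44.7-fold lower than in sham (adjusted p = 0.163 and 0.217 in edgeR). Tlr6, which pairs with Tlr2, had 6.46, 0.335 and 9.40 CPM in microbead, 33.7, 0.158 and 46.3 in contralateral, 13.3, 50.4, 67.1 and 67.7 in sham, and 32.9, 53.4, 56.7 and 14.1 in naive. In CPM all microbead libraries lay below all sham and naive libraries, with adjusted p-values of 0.431 and 0.440 in edgeR. On the per-length scale the groups overlapped, with 1.72 to 9.96 FPKM in microbead, 5.33 to 27.05 in sham and 8.75 to 26.08 in naive. Tlr11, which recognises a protozoan profilin in mice, had 0 reads in every microbead and contralateral library, at most 9.37 CPM in sham and at most 1.11 CPM in naive. The summed level of the border macrophage markers was wholly lower in microbead than in naive, as given above. Single markers could overlap, as Pf4 did with 0 to 6.46 CPM in microbead and 0 to 32.8 in naive. The part of these markers in the values of the receptors was not tested.

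Of 11 genes for co-receptors and receptor trafficking, 10 were tested and 0 passed. The median log2 fold change was 0.01 against naive. Ly96, which encodes the lipopolysaccharide-binding partner of Tlr4, had 111, 20.4 and 28.1 CPM in microbead, 4.56, 9.46 and 5.63 in contralateral, 8.93, 16.6, 14.6 and 33.4 in sham, and 20.7, 14.5, 7.16 and 6.49 in naive. Every microbead library lay above every contralateral library (log2 fold change 3.01, SE 0.99, adjusted p = 0.254), and the value against naive was 2.11 (SE 0.86, adjusted p = 0.413). Rftn1, which encodes the lipid-raft protein raftlin, had 61.0, 44.0 and 64.6 CPM in microbead, against at most 28.2 in any other library (log2 fold change against naive 2.56, SE 1.35, adjusted p = 0.513). Hsp90b1, a chaperone that folds Toll-like receptors, had 766, 699 and 598 CPM in microbead and 423, 611, 529.8 and 481 in naive, which overlapped.

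Of 24 adaptors, kinases and ligases, all tested, 0 passed, and 8 were higher and 16 lower in microbead than in naive, with a median of -0.36. Irak2, a kinase of the Myd88 complex, had 29.4, 83.1 and 79.6 CPM in microbead, 278, 271 and 182 in contralateral, 165, 102, 124 and 187 in sham, and 146, 106, 124 and 105 in naive. Every microbead library lay below every other library of the series, with log2 fold changes of -1.92 against contralateral (SE 0.41, adjusted p = 0.0760), -1.16 against sham (SE 0.38, adjusted p = 0.312) and -0.90 against naive (SE 0.38, adjusted p = 0.427). Tab2, which links the signal to the kinase Map3k7, had 312, 199 and 72.3 CPM in microbead and 104, 56.3, 72.0 and 49.8 in naive (log2 fold change 1.46, SE 0.50, adjusted p = 0.291). Sarm1, an NAD-cleaving relative of the adaptors, had 0 reads in the microbead libraries, 0, 98.1 and 8.96 CPM in contralateral, 13.4 to 27.5 in sham and 0 to 13.3 in naive. Against the floor of 3 reads, which covers counting error only, it was at least 148-fold below the sham mean and at least 59.6-fold below the naive mean. The adjusted p was 0.176 and 0.221 in edgeR. Naive 4 and contralateral 1 also had 0 reads, so the bounds do not cover the spread between libraries.

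Of 15 inhibitors of the pathway, 14 were tested, and Nfkbia alone passed. Nfkbia encodes the protein that holds NF-kB in the cytoplasm and is itself a target of NF-kB. It had 1169.8, 743 and 1089 CPM in microbead, 628, 323 and 279.9 in contralateral, 702, 635, 394 and 513 in sham, and 282, 369, 322 and 347 in naive. In CPM every microbead library lay above every other library. On the per-length scale microbead (486 to 908 FPKM) overlapped sham (316 to 575). Nfkbia rose in microbead against naive by 1.60 on the log2 scale (SE 0.30, adjusted p = 0.0339 in edgeR), while the values against sham, 0.83 (SE 0.29, adjusted p = 0.358), and contralateral, 1.29 (SE 0.32, adjusted p = 0.116), did not pass. Lilrb4a, an inhibitory receptor, had 35.9, 174 and 39.5 CPM in microbead and 14.4, 22.3, 9.79 and 9.29 in naive (log2 fold change 2.58, SE 0.75, adjusted p = 0.171). Atf3, a repressor of cytokine transcription, had 429, 542 and 664.5 CPM in microbead, 1167, 693 and 178 in contralateral, 582, 695, 278 and 285 in sham, and 98.4, 247, 258 and 245 in naive.

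Of 22 transcripts induced by Toll-like receptor ligands in macrophages, 17 were tested, 14 were higher in microbead than in naive, and 1 passed. Their median log2 fold change was 1.44 against naive, 0.77 against sham and 0.80 against contralateral, beside -0.14, -0.12 and -0.08 over all genes, and 8 of the 17 had an unadjusted p under 0.05 against naive (10.5% of all genes). Ccl2, a chemokine that attracts monocytes, had 480, 309 and 539 CPM in microbead, 77.0, 267 and 86.9 in contralateral, 128, 223, 89.5 and 157 in sham, and 24.0, 65.6, 103 and 60.8 in naive. It rose in microbead against naive by 2.81 on the log2 scale (SE 0.50, adjusted p = 0.0281 in edgeR), and every microbead library lay above every other library. The values against sham, 1.57 (SE 0.48, adjusted p = 0.256), and contralateral, 1.62 (SE 0.53, adjusted p = 0.253), did not pass. Ccl4, another chemokine, had 1160.5, 473 and 392 CPM in microbead and 53.8, 120, 264 and 157 in naive (log2 fold change 2.18, SE 0.48, adjusted p = 0.0651). Nfkbiz, a nuclear regulator of NF-kB targets, had 552, 341 and 181 CPM in microbead and 104, 140, 178 and 105 in naive (log2 fold change 1.44, SE 0.39, adjusted p = 0.136).

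Sham also lay above naive for this last list, with 14 of 17 higher, a median of 0.73 and 6 at an unadjusted p under 0.05 (2.66% of all genes), and 0 passed the adjusted test. The calls of Nfkbia and Ccl2 were lost without microbead 1 (adjusted p = 0.0866 and 0.0711), without any 1 of the naive libraries (0.101 to 0.143 and 0.0533 to 0.131), and with the length trend removed (0.140 and 0.276, at log2 fold changes of 1.94 and 2.21). Both were also lost with the compared groups fitted alone (0.0840 and 0.0744) and with the replicate numbers as a block (0.0719 and 0.0652). That of Nfkbia alone was lost without the libraries of fewer than 12000 genes (0.0585) and in limma on log2(FPKM + 1) (0.0898). In edgeR's joint test of the 4 groups neither Nfkbia (adjusted p = 0.0611) nor Ccl2 (0.0567) passed, and 0.224% of all genes did. Markers of monocytes, which also make these chemokines, summed to 76.8 to 182 CPM in microbead and 2.30 to 35.0 CPM in naive, which did not overlap. In microbead 1 only 1 of the 10 markers had reads. Of the 7 tested markers, 5 were higher and 2 lower in microbead than in naive. At an unadjusted p under 0.05 in edgeR 4 of the 7 passed (10.5% of all genes), all higher, with 0 past the adjusted test. The part of these markers in the values above was not tested.

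**Figure D3:**
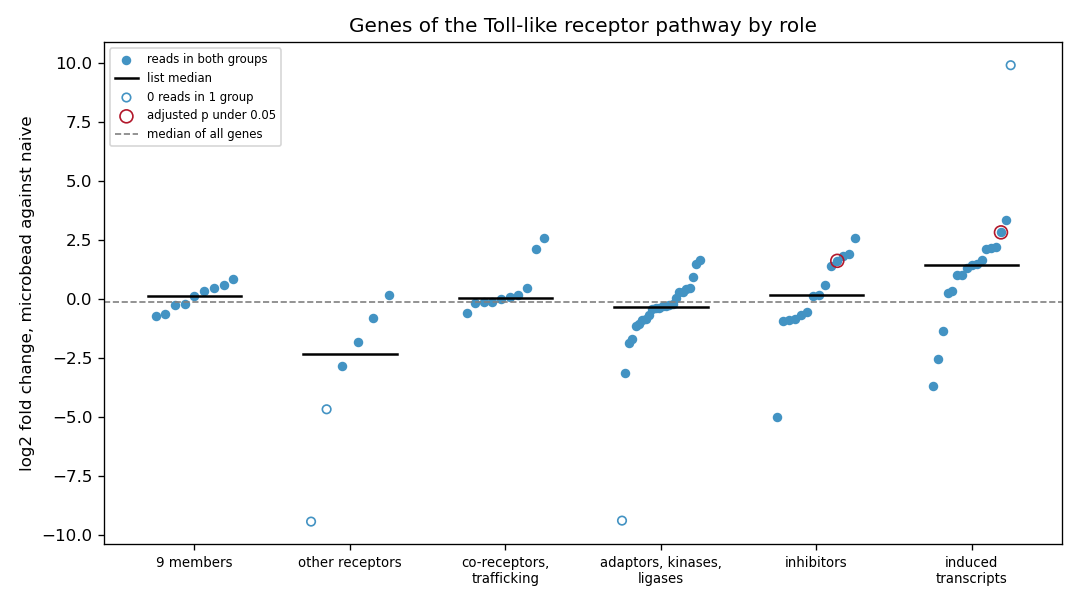
Log2 fold change of microbead against naive for the 9 members and for the tested genes of 5 pathway lists, with the list medians as bars, the median of all genes as a dashed line, open circles for genes with 0 reads in 1 group, whose fitted values are no measure of size, and red rings for genes past an adjusted p of 0.05. The induced transcripts have a median of 1.44, the members one of 0.12, and Nfkbia and Ccl2 carry the rings.

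Over the 14 libraries, each member was set beside 8137 genes of at least 10 CPM by the Pearson correlation of log2 CPM, as a description, since the libraries share their depth and length differences. The genes nearest to Tlr2 were Cept1 and Slc30a7 (r = 0.97 for both), and those nearest to Tlr7 were Ick (0.95) and Aldh18a1 (0.94). Tlr3 was nearest to Gtf2a2 (0.94) and Cops6 (0.83), and Tlr4 to Gemin4 (0.87) and Nfkbie (0.86). Tlr9 was nearest to Nrf1 (0.92) and Plxdc1 (0.90), and Tlr13 to Canx (0.87) and Arl8b (0.86). Cd14 was nearest to Socs3 (0.92) and Etfdh (0.91), Ly86 to Ctsl and Ptpn1 (0.86 for both), and Myd88 to Psmd9 (0.91) and Smg8 (0.89). No member was among the nearest 2 genes of another member.

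The values of Ly86 and Tlr9 depended on how transcript length was handled more than on the normalization or the low-count filter. Single libraries mattered too. Tlr9 against contralateral ran from -1.46 to -0.85 with 1 library left out, and from -1.34 to -0.92 over the other settings. Against contralateral, removing the length trend also moved the median of all genes from -0.08 to -0.22. In the plot by way of processing, all values of Ly86 are above 0 and all values of Tlr9 below it.

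**Figure D4:**
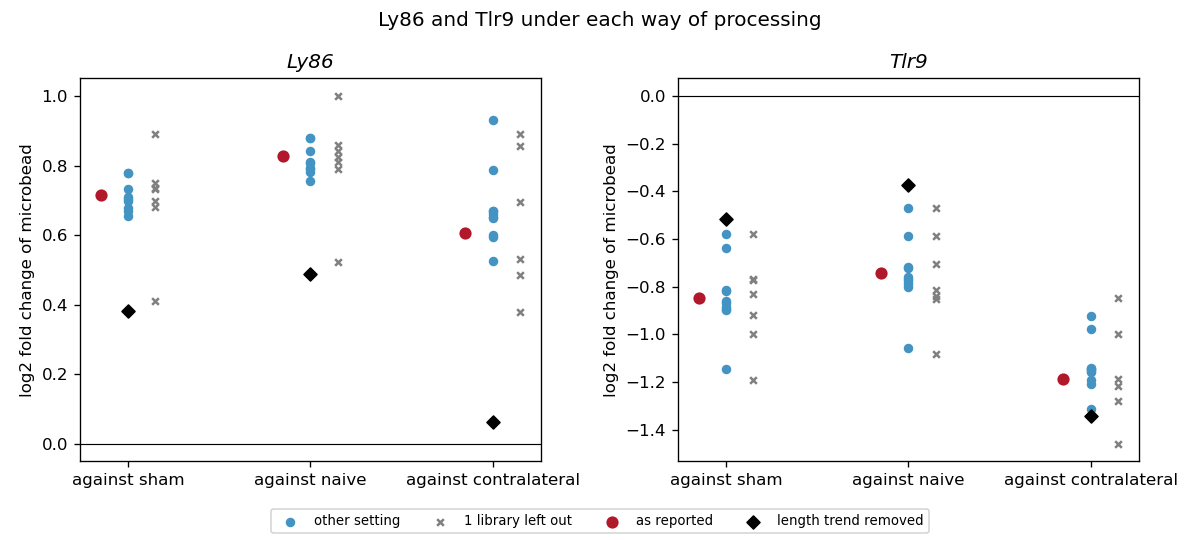
Log2 fold change of microbead against sham, naive and contralateral for Ly86 and Tlr9, as reported, under each other way of processing, with the length trend removed and with 1 library left out at a time. Ly86 runs from 0.06 to 1.00 and Tlr9 from -1.46 to -0.37.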

How the data were processed

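The members and the pathway and marker lists were chosen with earlier results of these data known. Each of the 14 libraries has a deposited table of expected counts, that is reads per gene as estimated by the authors, with no scaling to depth or length. Per the file headers, further columns hold FPKM, scaled by the authors to effective length and mapped reads, and the effective length in bases. The authors' series-wide FPKM table differed from the single tables by more than 0.006 in 0 values. Per the submitters' processing notes the tools were Salmon 1.4.0, R 4.0.3 and DESeq2 1.30.1, with the build mm10 and no roles given. Column names follow RSEM, but the counter and strand setting are not given in the sources used here.

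Expected counts were rounded and fitted in R 4.3.3 with edgeR 4.0.16: filterByExpr with a minimum count of 10, TMM scaling, 1 robust quasi-likelihood model of the 4 groups (10 residual degrees of freedom), two-sided tests, Benjamini-Hochberg adjustment over 14279 genes and a threshold of 0.05. CPM used TMM-scaled library sizes, and log2 CPM a prior count of 2. Alternatives were DESeq2 size factors, DESeq2 1.42.0, limma 3.58.1 (voom with quality weights, and log2(FPKM + 1)), no filter or 50 reads in 3 libraries, the compared groups alone, the replicate numbers as a block, each library left out, libraries with fewer than 12000 genes left out, 456 identifiers absent from the authors' series-wide table left out, and a length trend (lowess, span 0.5, genes of at least 10 CPM) removed.

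All members are named. Of the lists, genes past the threshold in a microbead comparison are named, with the 3 genes of smallest p against naive per list, and for likeness the 2 genes of highest correlation, predicted genes and pseudogenes left out. Cd180 and the markers were named after their values were seen. Gene positions came from GENCODE M21, matched by identifier. Depth is given in the report, and deeper libraries have the smaller counting error, while the groups of 3 or 4 libraries limit the tests.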

Additional observations from a re-analysis of the deposited data

How the results depend on the processing

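The number of members past the threshold was 0 in all 6 comparisons and in the joint test under every alternative run, with 3 exceptions. DESeq2's Wald test and limma's voom each gave 1 in microbead against naive (Ly86), and DESeq2's Wald test gave 1 in microbead against contralateral (Tlr9). Of the log2 fold changes outside the left-out libraries, 355 kept their sign and side of the threshold, 8 lost a call, 3 gained one and 19 changed sign. The count of all genes called ran from 0 to 469 over the settings in microbead against sham, from 1 to 580 against naive and from 0 to 683 against contralateral, with the highest counts from DESeq2's Wald test (469, 580 and 683), against 2, 30 and 4 in edgeR's quasi-likelihood test as described. With 1 library left out it ran from 0 to 134, 0 to 168 and 0 to 162, the highest without microbead 3. The cause of these changes was not tested.

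The sign changes are given here by setting. Without libraries of fewer than 12000 genes, Tlr2 was 0.013 and Tlr3 -0.12 against sham, Tlr3 was -0.045 against naive, and Tlr4 was -1.21 and Myd88 0.16 against contralateral. With the length trend removed, Tlr2 was 0.014 and Tlr13 0.018 against sham, and Tlr4 was 0.45 and Tlr13 0.29 against naive. This correction moved the median of all genes in microbead against contralateral to -0.22, from -0.08. With voom, Myd88 was -0.15 against sham and Tlr4 -0.85 against contralateral. On log2(FPKM + 1), which understates changes of low genes, Myd88 was -0.77 against sham, Tlr2 -0.071, Tlr13 0.11, Cd14 -0.31 and Myd88 -0.26 against naive, and Tlr4 -0.10 against contralateral. With the replicate block, Myd88 was -0.32 against sham and Cd14 -0.015 against naive. The labels do not say that the replicate numbers pair the retinas, and same-numbered libraries did not deviate together (correlations from -0.05 to 0.11). The block gave 0 called members in each comparison and 0, 1 and 0 called genes in microbead against sham, naive and contralateral.

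With 1 library left out, the microbead values against sham ran from -0.59 to 0.013 for Tlr2, from -0.12 to 0.85 for Tlr3 and from -1.61 to 0.57 for Myd88. Against naive they ran from -0.044 to 0.72 for Tlr3, from -1.47 to 0.067 for Tlr4, from -0.60 to 0.44 for Cd14 and from -1.20 to 0.98 for Myd88. Against contralateral they ran from -0.79 to 1.19 for Tlr4, from -0.037 to 0.80 for Tlr7 and from -1.97 to 0.21 for Myd88. The member values with the fewest reads, and so the largest counting error, were Myd88 and Tlr7 in microbead 1 (32 and 45 reads), Tlr3 in contralateral 1 (33) and Tlr2 in contralateral 2 (44).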
